A study of Danio rerio with 20 samples.

Results

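The sp7+ and sp7- cells of the uninjured zebrafish caudal fin were compared in 4 RNA-seq libraries out of the 20 of the series, 2 of each population. The fins came from adult Tg(sp7:EGFP) fish, in which regulatory regions of sp7 drive EGFP, and the groups differed only in the fluorescence gate. The sp7+ cells were sorted from the EGFP-positive gate and the sp7- cells from the EGFP-negative gate of dissociated fins. Fins of several fish were pooled for a replicate, dissociated with TrypLE and then with Liberase, and sorted by FACS (fluorescence-activated cell sorting), so both populations had the same enzymes and same-numbered libraries share their fins. The comparison asks which transcripts set the cells with an active sp7 reporter apart from the EGFP-negative cells of a resting fin. The 4 matching libraries of 4 dpa (days post amputation) regenerates entered the fit only to share its estimate of spread and to set each difference beside that of a second day. Each group held 2 libraries, and if same-numbered libraries share their fins, both groups came from the same 2 pools of fins. The p-values rest on the spread between replicate libraries, estimated over all 8 sorted-cell libraries. The main fit did not use the pairing.

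Fin rays are built of paired, segmented hemirays of dermal bone, lined by osteoblasts and filled with fibroblasts, nerves and vessels. The whole ray is wrapped in a stratified epidermis with a basal layer on a basement membrane, intermediate layers, and a superficial layer sealed by tight junctions. The zinc finger factor Sp7 (osterix) acts downstream of Runx2 as cells commit to the osteoblast lineage, and osteoblasts then secrete type I and type X collagen, non-collagenous matrix proteins and the enzymes that let matrix mineralize.

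The sp7+ libraries held 29464100 and 28906309 counts and the sp7- libraries 39213454 and 47357980 counts. CPM values are counts scaled to 1 common library size after TMM (trimmed mean of M values) adjustment, which compare one gene between libraries but not one gene with another, since transcript length is not removed. Replicates were correlated at r = 0.974 in sp7+ and r = 0.983 in sp7- cells across the log2 CPM of the 18641 genes tested (a description across genes, which are not independent). The transcript that defines the sort followed the gate. sp7 (ENSDARG00000019516) stood at 30.1 and 31.9 CPM in sp7+ and 0.252 and 0.145 CPM in sp7- cells, a log2 fold change of 7.31 ± 0.37 (SE), or 159-fold (adjusted p = 1.41e-07, edgeR quasi-likelihood test against a 2-fold change). The residual level in the sp7- libraries was below 1 CPM in both. Because these are bulk libraries, a lower value may mean fewer cells of a type or less RNA per cell, and these cannot be told apart.

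Of the 18641 genes, 1789 (9.6%) were called higher and 1576 (8.45%) lower in sp7+ than in sp7- cells by more than 2-fold at a false discovery rate of 0.05, together 18.1%. The median log2 fold change of the higher calls was 2.84 and their largest 10.54, and for the lower calls these were -2.43 and -9.11. A fitted difference beyond 32-fold was found for 262 of the higher and 53 of the lower calls. With a mean of at least 10 CPM in the higher population, these were 132 higher and 0 lower calls. DESeq2 gave 1324 higher and 780 lower calls, so that 62.9% of its calls and 53.2% of those of edgeR were on the sp7+ side.

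**Figure D1:**
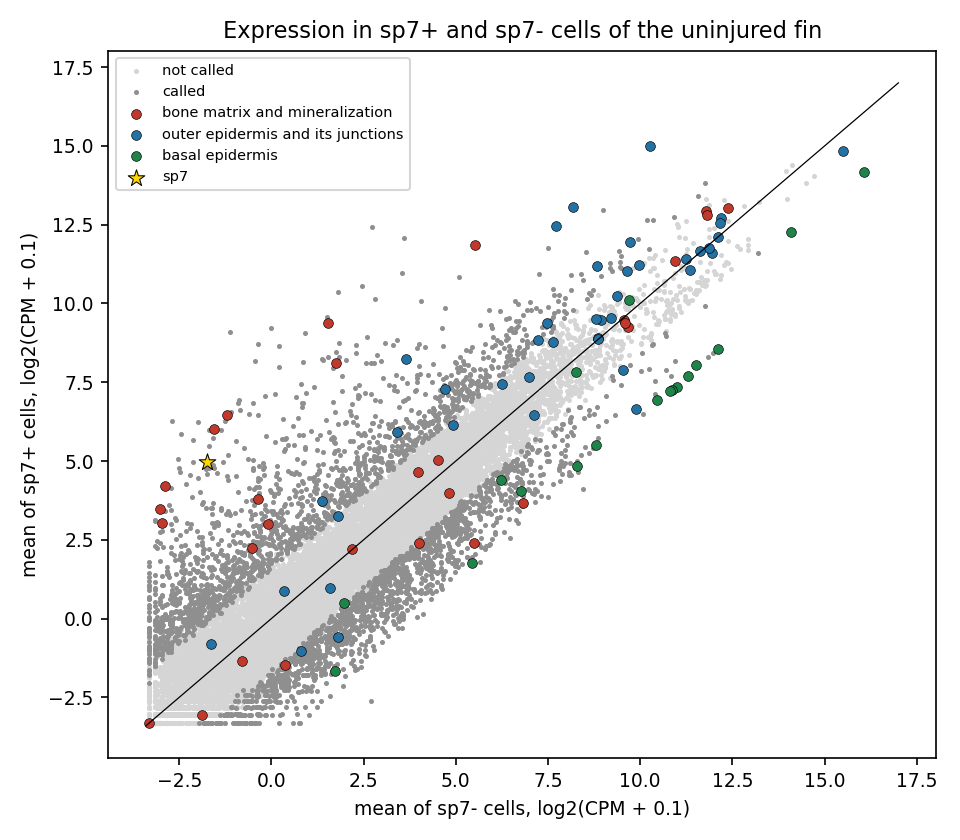
Mean expression of each tested gene in sp7- cells (horizontal axis) and sp7+ cells (vertical axis) of the uninjured fin, both as log2(CPM + 0.1) over 2 libraries, with genes called past a 2-fold change in dark grey and 3 gene lists and sp7 in colour. The 11 bone genes called higher and several outer epidermal genes lie far above the line of equal expression. Below it lie the 2 bone genes called lower and the 15 of 18 basal epidermal genes called lower.

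The 15 genes with a symbol and the largest positive differences (both sp7+ libraries above both sp7- libraries, at least 10 CPM on average) held 4 genes of the skeleton. The osteocalcin-like gene bglapl (ENSDARG00000104467) stood at 225 and 868 CPM in sp7+ and 0.252 and 0.459 CPM in sp7- cells (1490-fold, adjusted p = 8.93e-07). A type X collagen gene listed as COL10A1 (ENSDARG00000101535), a chain laid down by zebrafish osteoblasts, measured 3228 and 7819 CPM in sp7+ and 3.65 and 9.39 CPM in sp7- cells, a log2 fold change of 9.72 ± 0.66 (SE). The hemichannel gene panx3, active in mammalian osteoblasts and hypertrophic chondrocytes, stood at 8.79 and 27.9 CPM in sp7+ and 0 and 0.0724 CPM in sp7- cells. scpp1, of the secretory calcium-binding phosphoprotein family of mineralizing matrix proteins, stood at 4.75 and 17.5 CPM in sp7+ and 0 and 0.0483 CPM in sp7- cells. Both had 3 counts or fewer in each sp7- library. Their ratios of summed counts, scaled to library size, were 461-fold (157 to 2238) and 420-fold (116 to 3480), with exact 95% binomial intervals that cover counting error only.

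The other 11 of these 15 carried no link to bone in their names. They were si:ch211-153b23.3, si:ch211-226h7.7, si:dkey-162h11.2, zgc:163079, si:ch73-181m17.1, si:ch211-217k17.8, si:ch211-217k17.9, OTTDARG00000036968, OTTDARG00000036969, cyldb (a paralog of the deubiquitinase gene CYLD) and mpeg1.3 (of the perforin-2 family, whose mammalian member is a macrophage gene). OTTDARG00000036969 measured 4761 and 3832 CPM in sp7+ and 13.7 and 10.4 CPM in sp7- cells. mpeg1.3 stood at 52.0 and 48.7 CPM in sp7+ against 0.157 and 0.0966 CPM in sp7- cells, while the general macrophage genes described further on were lower in sp7+ cells. In sp7+ cells replicate 1 exceeded replicate 2 for 10 of the 11, si:ch73-181m17.1 being the exception, and replicate 2 exceeded replicate 1 for all 4 skeletal genes.

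At the other end, the 15 largest negative differences by the same rule (a symbol, both sp7+ libraries below both sp7- libraries, at least 10 CPM on average in sp7- cells) lay between 12.7-fold and 20.5-fold. SAA2, listed for a serum amyloid A gene of the acute phase response, measured 15.7 and 18.4 CPM in sp7+ and 303 and 397 CPM in sp7- cells (log2 fold change -4.36 ± 0.25, SE; adjusted p = 5.66e-07). The Notch ligand gene jag1a stood at 5.06 and 6.58 CPM in sp7+ and 112 and 65.4 CPM in sp7- cells. The gene of a neutrophil-attracting chemokine, cxcl8b.1, stood at 3.86 and 2.91 CPM in sp7+ and 55.1 and 44.8 CPM in sp7- cells. fras1 and col7a1l, whose products anchor the epidermis to the underlying matrix, were 13.1-fold and 12.7-fold lower, and the rest were si:ch211-210b2.3, cyp1c1, EFEMP1, ggt1a, AQP8, si:ch1073-396h14.1, cers3b, ednrbb, galnt18b and mmp30.

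Bone matrix and mineralization genes held the largest share of higher calls among the 21 lists. Of 29 measured members, 11 were higher (37.9%, against 9.6% of all genes) and 2 lower (6.90%, against 8.45%), with a median log2 fold change of 0.67 where the median of all genes was -0.07. Osteocalcin, bglap, stood at 17.4 and 113 CPM in sp7+ and 0.283 and 0.193 CPM in sp7- cells. Like bglapl, it separated the gates in every library. Osteopontin, spp1, a phosphoprotein of mineralized matrix, measured 150 and 397 CPM in sp7+ and 2.74 and 3.74 CPM in sp7- cells (adjusted p = 1.73e-06). The second type X collagen gene, col10a1a, was 80.7-fold higher at 1770 and 5613 CPM in sp7+ and 34.4 and 57.0 CPM in sp7- cells. col5a2b, a chain of fibril-nucleating type V collagen, measured 378 and 940 CPM in sp7+ and 2.71 and 2.92 CPM in sp7- cells, a log2 fold change of 7.87 ± 0.49 (SE). Replicate 2 was the higher sp7+ library in each of these genes. ifitm5 (Bril), a membrane protein of mineralizing osteoblasts, stood at 50.8 and 126 CPM in sp7+ and 0.157 and 0.507 CPM in sp7- cells.

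Some enzyme genes and a hormone gene of mineralization were on the same side, but the phosphatase genes alpl and alpi.1, given below, were not. entpd5a, the nucleotidase that zebrafish need to mineralize bone, measured 7.37 and 20.4 CPM in sp7+ and 0.472 and 0.869 CPM in sp7- cells (20.2-fold, adjusted p = 8.13e-05). phex, the osteoblast and osteocyte endopeptidase that restrains FGF23 in mammals, stood at 3.73 and 11.9 CPM in sp7+ and 0.724 and 0.966 CPM in sp7- cells. fgf23 itself, the gene of that phosphate-lowering hormone, stood at 7.59 and 8.73 CPM in sp7+ and 0.0314 and 0.0242 CPM in sp7- cells, with 1 count in each sp7- library and a ratio of summed counts of 300-fold (82.4 to 2484). cthrc1a, a secreted collagen triple-helix repeat protein, was 7.53-fold higher. The call of each of the 11 stood when any 1 of the 4 libraries was left out, and with DESeq2.

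Type I collagen, osteonectin and tissue-nonspecific alkaline phosphatase genes were not called past a 2-fold change. The type I collagen gene col1a1a measured 4534 and 11250 CPM in sp7+ and 3705 and 3323 CPM in sp7- cells (log2 fold change 1.17 ± 0.39, SE; adjusted p = 0.435). Its partner col1a2 measured 4551 and 9810 CPM in sp7+ and 3950 and 3276 CPM in sp7- cells (adjusted p = 0.647). Tested against no difference (edgeR), col1a1a and col1a2 passed as higher (adjusted p = 0.0303 and 0.0412). The sparc and alpl genes, given next, did not pass that test (adjusted p = 0.413 and 0.0576). In both collagen genes the sp7+ libraries lay above the sp7- libraries. However, replicate 2 of the sp7+ cells exceeded replicate 1 by more than the populations differed in replicate 1. Osteonectin, sparc, stood at 1407 and 3769 CPM in sp7+ and 1917 and 2018 CPM in sp7- cells, so the groups overlapped, and its log2 fold change of 0.40 turned to -0.49 without sp7+ replicate 2. Tissue-nonspecific alkaline phosphatase, alpl, whose activity is a common osteoblast stain, was below both sp7- libraries in both sp7+ libraries. It measured 9.23 and 22.1 CPM in sp7+ and 27.5 and 28.5 CPM in sp7- cells (log2 fold change -0.84 ± 0.33, SE; adjusted p = 0.873), and, of the fits that left out 1 library, was called lower only in that without sp7+ replicate 2 (adjusted p = 0.0282). The 2 members called lower were alpi.1 and CYP26B1. alpi.1, an intestinal-type phosphatase gene, stood at 3.37 and 6.86 CPM in sp7+ and 47.4 and 42.0 CPM in sp7- cells. CYP26B1, whose product degrades retinoic acid, stood at 9.54 and 15.5 CPM in sp7+ and 99.1 and 127 CPM in sp7- cells. The list held 5 lower calls without sp7+ replicate 2, 4 without sp7- replicate 1 and 4 in the fit that paired same-numbered libraries.

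**Figure D2:**
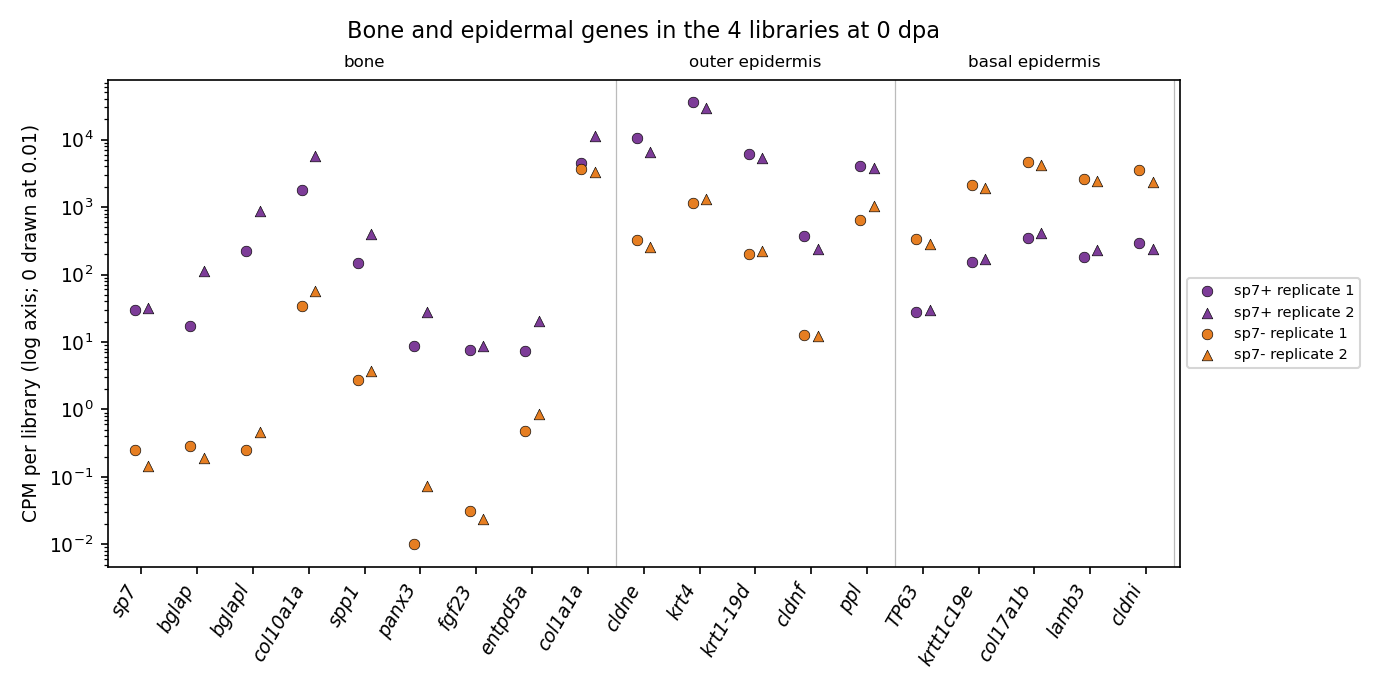
CPM of 19 genes in each of the 4 libraries at 0 dpa, on a log axis, with sp7+ libraries in purple and sp7- libraries in orange (circle, replicate 1; triangle, replicate 2). The fitted fold between the gates exceeds 10 for sp7 and the bone genes other than col1a1a. In these genes and col1a1a replicate 2 lies above replicate 1 in sp7+ cells, though only slightly for sp7 and fgf23. Outer epidermal genes are also higher in sp7+ cells, and basal epidermal genes are about 10-fold lower there.

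Among 19 measured osteoblast regulators, 4 were higher in sp7+ cells (21.1%, against 9.6% of all genes) and 0 lower (against 8.45%) by edgeR. At an unadjusted p below 0.05 and with DESeq2, 0 were lower as well. The median log2 fold change was 0.58. The 4 higher genes included sp7, CDH11 and sox4b. Because sp7 defines the sort, its call follows from the gate and adds to the 21.1%. CDH11, the osteoblast cadherin, measured 49.3 and 121 CPM in sp7+ and 6.45 and 7.29 CPM in sp7- cells (12.4-fold). The SoxC factor gene sox4b went the other way between the sp7+ libraries, at 604 and 312 CPM in sp7+ and 96.1 and 66.7 CPM in sp7- cells (5.62-fold). The runx2 genes, which act above sp7, were not called. runx2b measured 20.6 and 20.7 CPM in sp7+ and 9.12 and 3.12 CPM in sp7- cells (log2 fold change 1.77 ± 0.39, SE; adjusted p = 0.0519) and passed with the paired fit (adjusted p = 0.00853), with the size factors of DESeq2 in edgeR (adjusted p = 0.0276) and without sp7- replicate 1 (adjusted p = 6.28e-04). runx2a stood at 6.35 and 7.21 CPM in sp7+ and 6.51 and 3.96 CPM in sp7- cells, with overlapping groups. dlx3b, a homeobox gene of the ray skeleton, measured 482 and 440 CPM in sp7+ and 182 and 170 CPM in sp7- cells and passed in the paired fit (adjusted p = 0.0268, against 0.0829 unpaired) and with those size factors (adjusted p = 0.0491).

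The collagen processing list held genes for enzymes, chaperones and export factors as well as the transcription factor gene CREB3L1. Of 30 measured, 4 were higher (13.3%, against 9.6% of all genes) and 2 lower (6.67%, against 8.45%) in sp7+ cells. The median log2 fold change was 0.11. CREB3L1 (OASIS), the endoplasmic reticulum stress factor that drives type I collagen transcription in mouse osteoblasts, was the firmest at 167 and 139 CPM in sp7+ and 9.34 and 10.4 CPM in sp7- cells (15.5-fold, adjusted p = 1.42e-06). The prolyl hydroxylase subunit gene p4ha1b, the lysyl hydroxylase gene plod2 and the lysyl oxidase gene loxa were 4.96-fold, 4.12-fold and 4.89-fold higher, but all 3 calls ended without sp7+ replicate 2 (adjusted p = 0.0606, 0.543 and 0.162), and those of plod2 and loxa also without sp7- replicate 1 (adjusted p = 0.102 and 0.0588). Without sp7+ replicate 2 the list held 1 higher and 7 lower calls, and without sp7- replicate 1 it held 2 higher calls. Other lysyl oxidases were lower. A gene listed as LOX measured 2.17 and 2.47 CPM in sp7+ and 8.84 and 14.2 CPM in sp7- cells. loxl1 measured 1.06 and 0.757 CPM in sp7+ and 12.2 and 9.39 CPM in sp7- cells, 11.8-fold lower. The collagen chaperone gene serpinh1b (Hsp47) stood at 44.9 and 107 CPM in sp7+ and 47.2 and 51.6 CPM in sp7- cells, with overlapping groups.

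Of 17 measured fibroblast and ray mesenchyme genes, 2 were higher (11.8%, against 9.6% of all genes) and 3 lower (17.6%, against 8.45%). The median log2 fold change was 0.16. The 2 that were higher code for proteins of dense connective tissue. Tenomodulin, tnmd, a tendon and ligament protein, stood at 23.8 and 66.8 CPM in sp7+ and 1.07 and 1.76 CPM in sp7- cells. col14a1a, of fibril-associated type XIV collagen, stood at 30.5 and 75.8 CPM in sp7+ and 1.45 and 0.99 CPM in sp7- cells. Among the lower genes, and1, for an actinodin of the fin's actinotrichia, measured 8.74 and 18.8 CPM in sp7+ and 58.0 and 129 CPM in sp7- cells. The LIM protein gene fhl1a measured 9.72 and 14.9 CPM in sp7+ and 79.7 and 81.1 CPM in sp7- cells. aldh1a2, for a retinoic acid-synthesizing enzyme, measured 0.843 and 1.35 CPM in sp7+ and 2.99 and 5.41 CPM in sp7- cells. The aldh1a2 call ended without sp7+ replicate 1 (adjusted p = 0.113) and without sp7- replicate 2 (adjusted p = 0.184), and the list held 5 lower calls without sp7+ replicate 2 and 5 in the paired fit. Decorin, dcn, a general fibroblast gene, stood at 50.1 and 119 CPM in sp7+ and 41.0 and 57.2 CPM in sp7- cells and was not called (adjusted p = 0.936).

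Genes of the outer epidermis formed a second group on the sp7+ side. Of 41 measured members, 11 were higher (26.8%, against 9.6% of all genes) and 3 lower (7.32%, against 8.45%). The median log2 fold change was 0.65. The tight junction gene cldne measured 10540 and 6570 CPM in sp7+ and 320 and 255 CPM in sp7- cells, and the related claudin genes cldnf and cldnh were 24.3-fold and 5.21-fold higher. krt4, a keratin of the superficial layer, stood at 35990 and 29420 CPM in sp7+ and 1149 and 1297 CPM in sp7- cells (26.8-fold, adjusted p = 1.46e-06), and krt1-19d at 6070 and 5244 CPM in sp7+ and 200 and 220 CPM in sp7- cells (26.9-fold). krt17 and krt93 were 5.13-fold and 3.77-fold higher. Plakin genes whose mammalian products belong to the cornified envelope were among the higher genes. Periplakin, ppl, measured 4070 and 3802 CPM in sp7+ and 644 and 1047 CPM in sp7- cells. An envoplakin gene, evpla, measured 519 and 406 CPM in sp7+ and 127 and 175 CPM in sp7- cells. The evpla call ended without sp7+ replicate 1 (adjusted p = 0.156) and without sp7- replicate 1 (adjusted p = 0.182). cgnb, a cingulin gene of the tight junction plaque, and agr1, of the anterior gradient family of secretory cell disulphide isomerases, were 5.99-fold and 5.76-fold higher.

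Most members of the list, 27 of 41, were not called past a 2-fold change, which does not show equal expression. krt91 measured 30680 and 27340 CPM in sp7+ and 42660 and 49930 CPM in sp7- cells and was not called (adjusted p = 1). cldnb, a claudin gene of the whole epidermis, measured 7303 and 6207 CPM in sp7+ and 4357 and 5069 CPM in sp7- cells and was not called (adjusted p = 1). Tested against no difference (edgeR), krt91 was lower (adjusted p = 0.0444), while cldnb did not pass (adjusted p = 0.11). The 3 members called lower past a 2-fold change were cldna, prom2 and krt94. cldna stood at 104 and 98.4 CPM in sp7+ and 858 and 1039 CPM in sp7- cells. prom2, for a prominin of plasma membrane protrusions, stood at 0.488 and 0.638 CPM in sp7+ and 4.28 and 2.54 CPM in sp7- cells. krt94 was 3.14-fold lower, and its call ended without sp7+ replicate 2 (adjusted p = 0.129) and without sp7- replicate 1 (adjusted p = 0.0694). Summed over the 41 genes, the sp7+ libraries held 135000 and 117000 CPM and the sp7- libraries 80500 and 92300 CPM. The part of epidermal cells in the sp7+ gate in these levels was not tested.

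Basal epidermal genes lay on the other side with little exception. Of 18 measured, 15 were lower in sp7+ cells (83.3%, against 8.45% of all genes) and 0 higher (edgeR; at an unadjusted p below 0.05 also 0, and with DESeq2 also 0), with a median log2 fold change of -3.45. The basal keratin gene krtt1c19e measured 155 and 170 CPM in sp7+ and 2127 and 1934 CPM in sp7- cells. TP63, the transcription factor that maintains basal keratinocytes, measured 27.6 and 30.1 CPM in sp7+ and 337 and 283 CPM in sp7- cells (log2 fold change -3.43 ± 0.26, SE; adjusted p = 7.62e-06). The hemidesmosome genes, which tie basal cells to the basement membrane, moved together: ITGB4 was 12.2-fold lower, its partner itga6b 9.85-fold, col17a1a 11.6-fold and col17a1b 11.7-fold. Chains of the basement membrane laminins were likewise lower. lamb3 stood at 180 and 232 CPM in sp7+ and 2590 and 2407 CPM in sp7- cells, while LAMA5 was 6.62-fold lower. The claudin gene cldni stood at 288 and 239 CPM in sp7+ and 3506 and 2344 CPM in sp7- cells. bcam, for a laminin receptor, was 14.9-fold lower, and the gates overlapped in none of these genes. No basal gene reached 0 in the sp7+ libraries, and the list summed to 27500 and 25100 CPM there against 107000 and 103000 CPM in sp7- cells.

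Keratins shared with other layers differed less. krt5 measured 18610 and 18340 CPM in sp7+ and 66840 and 69780 CPM in sp7- cells (3.7-fold lower), and krt15 was 3.55-fold lower with a call that ended without sp7+ replicate 2 (adjusted p = 0.0792) and without sp7- replicate 1 (adjusted p = 0.0691). epcam, an adhesion molecule of all epithelia, was at 1279 and 915 CPM in sp7+ and 853 and 797 CPM in sp7- cells, slightly higher in both sp7+ libraries but not called (log2 fold change 0.41 ± 0.24, SE; adjusted p = 1). The other members that were not called were col7a1 and frem2a, and the lower members also included fras1, given above, and HMCN1 (3.57-fold). The HMCN1 call ended without sp7+ replicate 1 (adjusted p = 0.176) and without sp7- replicate 2 (adjusted p = 0.146).

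**Figure D3:**
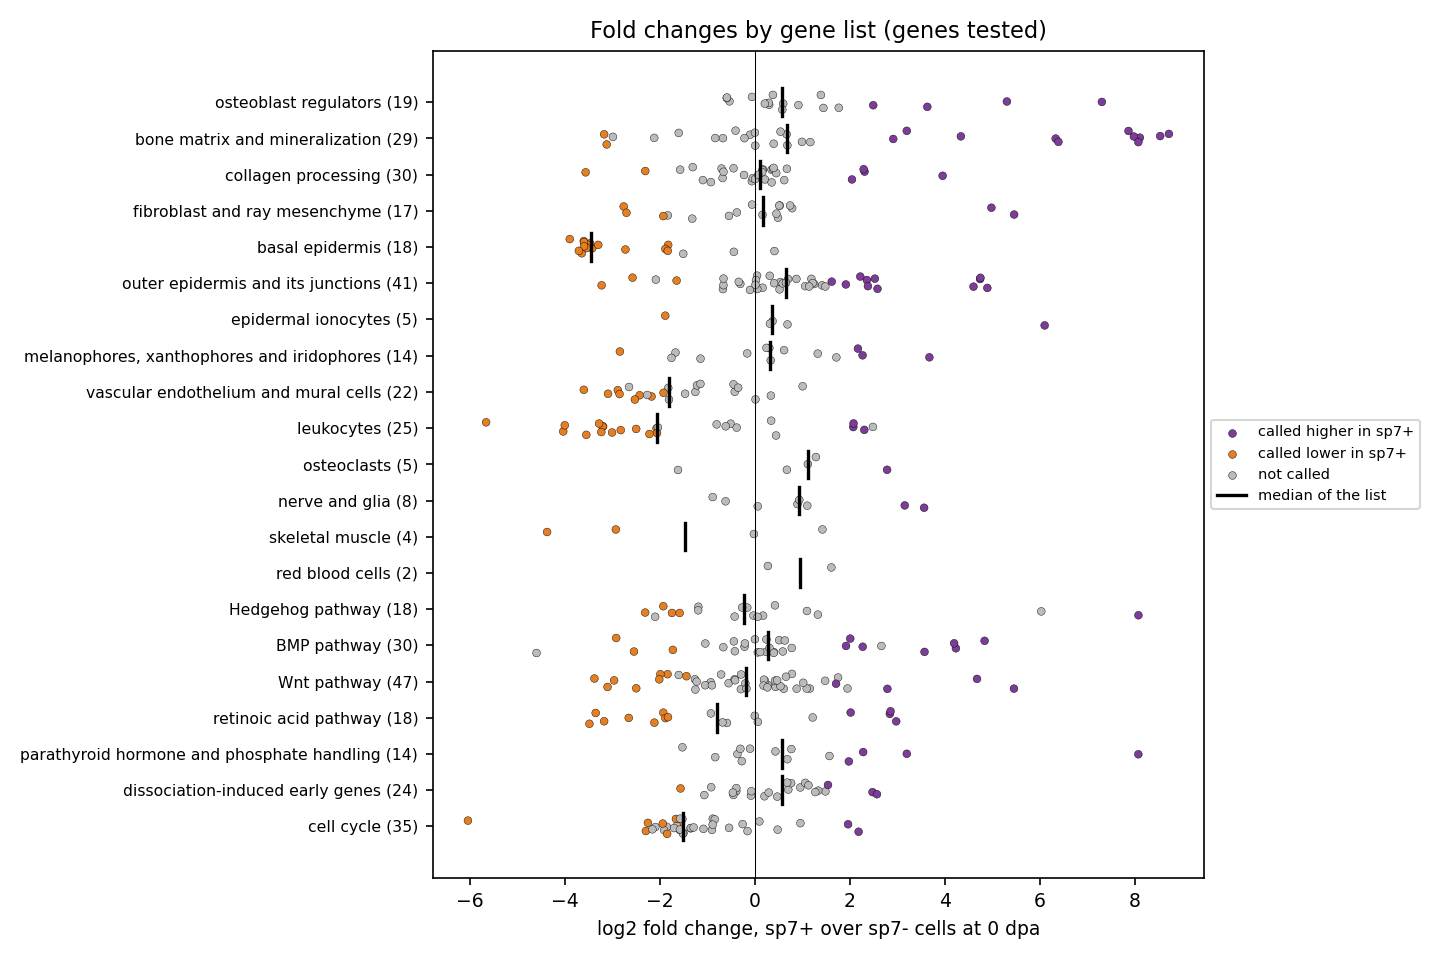
Log2 fold change of sp7+ over sp7- cells at 0 dpa for the tested members of each of 21 gene lists (horizontal axis), 1 dot per gene, purple if called higher, orange if called lower and grey if not called, with the median as a black bar. The basal epidermis stands at a median of -3.45, the leukocyte list at -2.07 and the cell cycle list at -1.51, whereas the bone list holds 11 purple dots up to 8.72.

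The bone and outer epidermal genes called higher mostly differed in opposite directions between the 2 sp7+ libraries. All 11 bone genes called higher held more CPM in sp7+ replicate 2 than in replicate 1, with a median difference of 1.46 on the log2 scale, whereas 1 of the 11 outer epidermal genes called higher did so (krt17), with a median difference of -0.35. Over all 1789 genes called higher, 602 were higher in replicate 2 (median difference -0.20). Of all 18641 genes tested, 9776 were higher in sp7+ replicate 2, and of the 1576 genes called lower, 983 were. The mesenchyme list went with bone, 17 of 17 measured genes being higher in sp7+ replicate 2, as did collagen processing (24 of 30). This direction was not particular to them, being found for 29 of 35 cell cycle, 15 of 18 Hedgehog and 13 of 18 basal epidermal genes. It was found for 11 of 41 outer epidermal genes and 3 of 24 genes that respond to dissociation. In sp7- cells 14 of 17 mesenchyme genes and 19 of 29 bone genes were higher in replicate 2, with median differences of 0.64 and 0.11. Of all 18641 genes, 9780 were higher in sp7- replicate 2. sp7 itself was at 30.1 and 31.9 CPM in the 2 sp7+ libraries and did not follow the bone genes. bglap differed most of the named bone genes, from 17.4 CPM in replicate 1 to 113 CPM in replicate 2. These differences are a description of 2 pools of fins, and their cause was not tested.

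**Figure D4:**
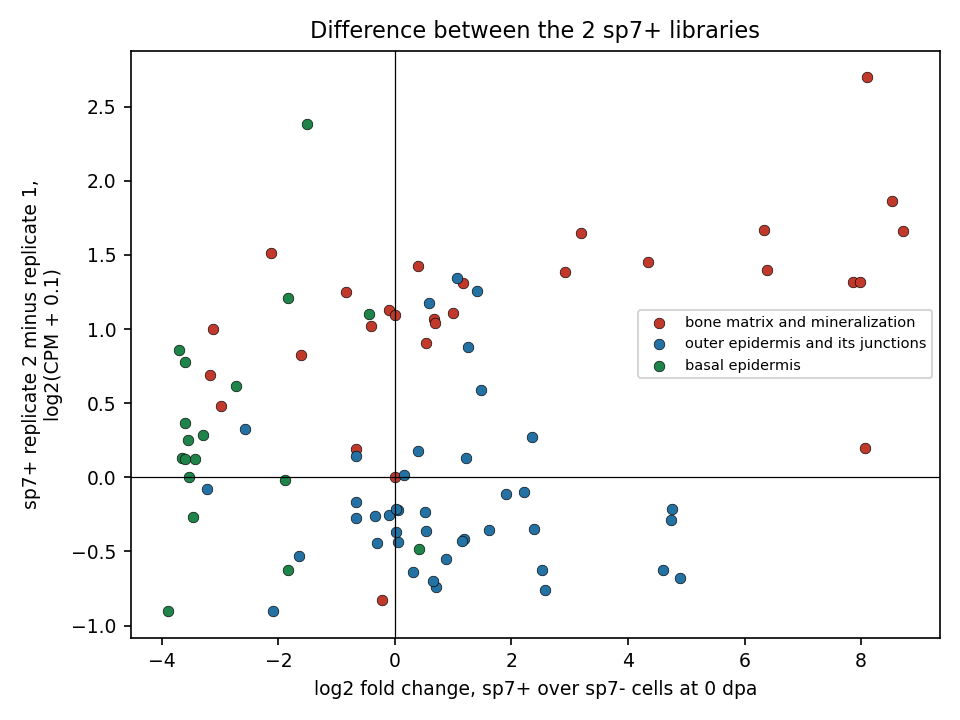
For tested members of 3 gene lists, the difference between the 2 sp7+ libraries (replicate 2 minus replicate 1, log2(CPM + 0.1), vertical axis) against the log2 fold change between sp7+ and sp7- cells (horizontal axis). The 11 bone genes called higher (median 1.46) lie above 0, and 10 of the 11 called outer epidermal genes (median -0.35) lie below it.

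Leukocyte genes were mostly lower in sp7+ cells, and those called higher were genes of antigen presentation. Of 25 measured, 14 were lower (56.0%, against 8.45% of all genes) and 3 higher (12%, against 9.6%). The other 8 were not called, the highest of them at a log2 fold change of 2.48. The median log2 fold change was -2.07. The pan-leukocyte phosphatase gene ptprc (CD45) stood at 1.29 and 4.07 CPM in sp7+ and 12.3 and 18.2 CPM in sp7- cells. A gene of the myeloid factor PU.1, spi1a, stood at 1.86 and 3.11 CPM in sp7+ and 17.8 and 22.5 CPM in sp7- cells. marco, a macrophage scavenger receptor gene, stood at 2.71 and 5.86 CPM in sp7+ and 24.5 and 36.5 CPM in sp7- cells. Genes of the complement component C1q, made by macrophages, were all lower: c1qa 16.4-fold, c1qb 9.73-fold and c1qc 9.42-fold. lyz, the lysozyme of neutrophils and macrophages, was at 1 count in each sp7+ library and 1.79 and 2.73 CPM in sp7- cells. apoeb, a lipid carrier gene of macrophages and also of zebrafish basal epidermis, measured 344 and 343 CPM in sp7+ and 4492 and 3561 CPM in sp7- cells. il1b, the gene of the inflammatory cytokine interleukin 1 beta, was 9.18-fold lower.

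The 3 that were higher belong to MHC class II antigen presentation. The invariant chain gene cd74a stood at 17240 and 11990 CPM in sp7+ and 3669 and 3281 CPM in sp7- cells. Its paralog cd74b stood at 6764 and 6173 CPM in sp7+ and 1138 and 1482 CPM in sp7- cells. The class II beta chain gene mhc2dab stood at 116 and 98.1 CPM in sp7+ and 22.1 and 28.7 CPM in sp7- cells (4.22-fold, adjusted p = 0.0017). All 3 calls stood whichever library was left out. Because of cd74a and cd74b the summed level of the list was higher in sp7+ libraries (24500 and 18700 CPM against 9590 and 8680 CPM), opposite to its median.

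Of 22 measured endothelial and mural genes, 8 were lower (36.4%, against 8.45% of all genes) and 0 higher (against 9.6%) by edgeR. At an unadjusted p below 0.05 and with DESeq2, 0 were higher as well. The median log2 fold change was -1.82. notch3, a mural cell receptor gene, measured 15.6 and 18.9 CPM in sp7+ and 149 and 99.8 CPM in sp7- cells. plvapb, of fenestrated endothelium, measured 1.20 and 1.55 CPM in sp7+ and 5.03 and 10.9 CPM in sp7- cells. The list held 4 lower calls without sp7- replicate 2 and 2 with DESeq2. Its sum was 67.6 and 70 CPM in sp7+ and 240 and 180 CPM in sp7- cells. Of 4 skeletal muscle genes, the creatine kinase gene ckma (20.8-fold) and the troponin gene tnnt3b (7.62-fold) were lower. Of 2 red blood cell genes, 0 were called (edgeR; at an unadjusted p below 0.05 and with DESeq2 also 0).

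Some small groups held genes that were higher in sp7+ cells. Of all genes, 9.6% were called higher and 8.45% lower. Of 14 pigment cell genes, 3 were higher and 1 lower. gch2, for the pteridine synthesis of xanthophores, measured 7.99 and 13.3 CPM in sp7+ and 0.629 and 1.01 CPM in sp7- cells (12.8-fold). The neural crest factor gene sox10 measured 3.86 and 3.35 CPM in sp7+ and 0.881 and 0.628 CPM in sp7- cells. The xanthophore gene aox5 was 4.5-fold higher, and its call ended without sp7- replicate 1 (adjusted p = 0.0607). TFEC, an iridophore-lineage factor, was 7.18-fold lower. In the nerve and glia list, 2 of 8 were higher, among them FOXD3, another neural crest factor gene, at 2.44 and 3.43 CPM in sp7+ and 0.315 and 0.338 CPM in sp7- cells. In the ionocyte list, foxi3a and foxi3b had 28 and 24 counts over the 4 libraries and were not tested. Of 5 measured ionocyte genes, the forkhead gene foxi1 was higher (68.7-fold, adjusted p = 5.87e-07, edgeR). It stood at 10.4 and 14.2 CPM in sp7+ and 0.126 and 0.217 CPM in sp7- cells. The V-ATPase gene atp6v1ab was 3.7-fold lower, with a call that ended without sp7+ replicate 1 (adjusted p = 0.172) and without sp7- replicate 2 (adjusted p = 0.135), and the other 3 were not called. Among 5 osteoclast genes, tnfrsf11a (RANK), the receptor for the osteoblast signal RANKL, was higher at 33.8 and 51.6 CPM in sp7+ and 6.64 and 5.77 CPM in sp7- cells. The gene of the resorption protease cathepsin K, CTSK, stood at 208 and 236 CPM in sp7+ and 127 and 152 CPM in sp7- cells and was not called (adjusted p = 1).

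In the Hedgehog pathway, in which secreted ligands act through Patched and Smoothened on the Gli transcription factors of receiving cells, 1 of 18 measured genes was higher and 4 were lower (5.56% and 22.2%, against 9.6% and 8.45% of all genes), with a median log2 fold change of -0.22. The ligand gene ihha measured 9.36 and 14.5 CPM in sp7+ and 0.0944 and 0 CPM in sp7- cells, at 3 counts in one sp7- library and 0 in the other, with a ratio of summed counts of 295-fold (100 to 1433). The genes of the receiving side that were called lay on the other side. The transducer gene gli2b stood at 3.91 and 5.38 CPM in sp7+ and 25.4 and 20.9 CPM in sp7- cells. Its paralog gli2a stood at 5.28 and 7.69 CPM in sp7+ and 24.1 and 19.6 CPM in sp7- cells. gli1, both a transducer and a target, was 3-fold lower, and the co-receptor gene gas1a 3.81-fold lower. The gli2b call stood whichever library was left out. The gli1 call ended without sp7+ replicate 1 (adjusted p = 0.111) and without sp7- replicate 1 (adjusted p = 0.0862), that of gli2a without sp7+ replicate 1 (adjusted p = 0.0651), and that of gas1a without sp7- replicate 1 (adjusted p = 0.08). The list thus held 2 lower calls without either replicate 1 and 1 with DESeq2, and 2 higher calls without sp7+ replicate 1 and in the paired fit. The receptor gene PTCH1, itself a pathway target, stood at 18.8 and 31.2 CPM in sp7+ and 24.0 and 20.5 CPM in sp7- cells and overlapped between the gates.

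Retinoic acid genes were called on both sides. Of 18 measured, 4 were higher (22.2%, against 9.6% of all genes) and 8 lower (44.4%, against 8.45%). The median log2 fold change was -0.80. The higher genes act in the uptake and conversion of retinoids. STRA6, for the receptor of retinol uptake, stood at 4.97 and 5.42 CPM in sp7+ and 0.912 and 0.435 CPM in sp7- cells. BCO1, whose product cleaves carotene to retinal, stood at 3.06 and 5.58 CPM in sp7+ and 0.503 and 0.676 CPM in sp7- cells. aldh1a3, whose product oxidizes retinal to retinoic acid, stood at 25.8 and 26.4 CPM in sp7+ and 3.84 and 3.45 CPM in sp7- cells (adjusted p = 3.81e-05). The retinal reductase gene dhrs3b was also higher (4.05-fold), with a call that ended without sp7- replicate 1 (adjusted p = 0.0806). The 3 genes of the degrading P450 enzymes were on the sp7- side. cyp26a1 measured 4.70 and 6.62 CPM in sp7+ and 53.7 and 73.3 CPM in sp7- cells. CYP26C1 measured 3.19 and 2.91 CPM in sp7+ and 37.4 and 25.1 CPM in sp7- cells, and CYP26B1 is given above. Of the receptor genes, raraa was 6.31-fold, rxraa 3.56-fold and rargb 3.7-fold lower, while rarab, rxrbb and rxrga were not called. The rargb call ended without sp7- replicate 1, where its log2 fold change was -1.56. With DESeq2 the calls of rxraa (adjusted p = 0.0862) and rargb (adjusted p = 0.226) ended. The synthesis gene aldh1a2 was also lower in sp7+ cells, as described with the mesenchyme. The plasma carrier gene rbp4 was 4.34-fold lower, and its call ended without sp7+ replicate 1 (adjusted p = 0.212) and without sp7- replicate 2 (adjusted p = 0.331). DESeq2 called 4 of the genes lower.

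**Figure D5:**
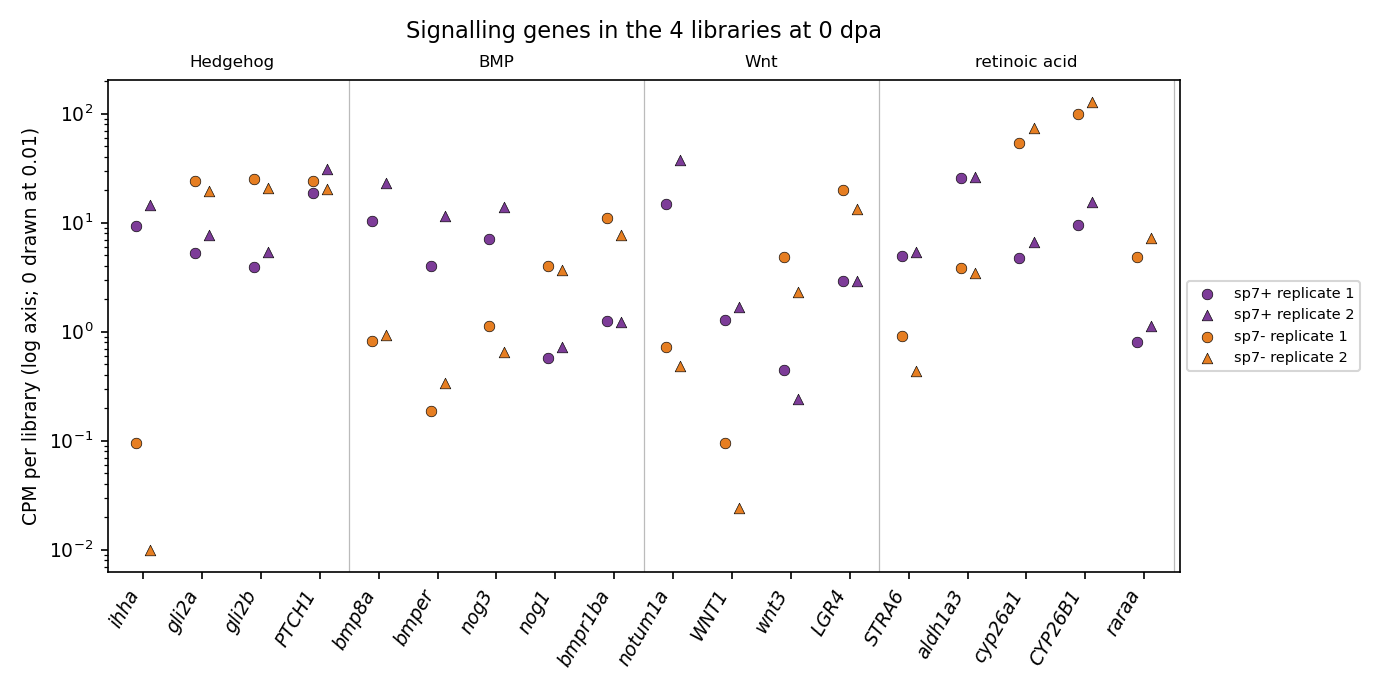
CPM of 18 signalling genes in each of the 4 libraries at 0 dpa, on a log axis, with sp7+ libraries in purple and sp7- libraries in orange (circle, replicate 1; triangle, replicate 2; 0 drawn at 0.01). Ligand and modulator genes lie on both sides, ihha, bmper and notum1a being higher in sp7+ cells and nog1 and wnt3 higher in sp7- cells. gli2b, cyp26a1 and LGR4 are also higher in sp7- cells, and the gates overlap only for PTCH1.

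BMP pathway genes called higher were mostly ligands and secreted modulators. Of 30 measured, 7 were higher (23.3%, against 9.6% of all genes) and 3 lower (10%, against 8.45%). The median log2 fold change was 0.27. The ligand gene bmp8a measured 10.3 and 23.0 CPM in sp7+ and 0.818 and 0.942 CPM in sp7- cells (18.8-fold). bmper, whose product binds BMPs outside the cell, measured 3.99 and 11.6 CPM in sp7+ and 0.189 and 0.338 CPM in sp7- cells (28.6-fold, adjusted p = 6.12e-05). Noggin genes, whose products trap BMPs, lay on both sides. nog3 stood at 7.10 and 13.8 CPM in sp7+ and 1.13 and 0.652 CPM in sp7- cells and nog2 was 3.78-fold higher. nog1 stood at 0.577 and 0.717 CPM in sp7+ and 3.96 and 3.67 CPM in sp7- cells, 5.85-fold lower. Also lower were the receptor gene bmpr1ba, at 1.24 and 1.24 CPM in sp7+ and 11.1 and 7.78 CPM in sp7- cells, and the ligand gene BMP4 (3.31-fold). The nog2 call ended without sp7+ replicate 2 (adjusted p = 0.175) and without sp7- replicate 2 (0.111), and that of BMP4 without sp7+ replicate 1 (0.141) and without sp7- replicate 2 (0.057). Without sp7+ replicate 2 the list held 4 higher calls. grem2a was also higher (18.3-fold), at 16 and 46 counts in sp7+ and 0 and 5 counts in sp7- cells. Leaving out each library in turn, its log2 fold change ran from 3.34 to 8.80. The other higher members were bmp5 and the target gene id2b. The last 2 calls ended without sp7+ replicate 2 (adjusted p = 0.112 and 0.155) and without sp7- replicate 1 (adjusted p = 0.0804 and 0.175).

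In the Wnt pathway, 4 of 47 measured genes were higher (8.51%, against 9.6% of all genes) and 8 lower (17%, against 8.45%). The median log2 fold change was -0.18. notum1a, a secreted enzyme that inactivates Wnt ligands and is itself a Wnt target, measured 14.8 and 37.6 CPM in sp7+ and 0.724 and 0.483 CPM in sp7- cells (43.9-fold, adjusted p = 1.17e-05). The ligand gene WNT1, mutated in human osteoporosis and osteogenesis imperfecta, stood at 1.29 and 1.67 CPM in sp7+ and 0.0944 and 0.0242 CPM in sp7- cells. It had 3 counts or fewer in each sp7- library and a ratio of summed counts of 27.3-fold (10.201 to 103). The secreted inhibitor gene wif1 was 3.27-fold higher at 107 and 182 CPM in sp7+ and 37.8 and 50.3 CPM in sp7- cells, but its call ended without sp7+ replicate 2 (adjusted p = 0.186) and without sp7- replicate 1 (0.104). Other ligand genes were lower. wnt3 stood at 0.444 and 0.239 CPM in sp7+ and 4.84 and 2.29 CPM in sp7- cells, and WNT3A was 8.6-fold lower. wnt5a was 3.58-fold lower, with a call that ended without sp7- replicate 1 (adjusted p = 0.0954). The R-spondin receptor gene LGR4 stood at 2.93 and 2.91 CPM in sp7+ and 19.8 and 13.3 CPM in sp7- cells. sost, the osteocyte Wnt inhibitor of mammals, measured 3.73 and 6.70 CPM in sp7+ and 12.7 and 19.1 CPM in sp7- cells. It was not called (log2 fold change -1.60 ± 0.31, SE; adjusted p = 0.0543) but passed as lower without sp7+ replicate 2 (adjusted p = 0.00618), without sp7- replicate 1 (0.0256) and in the paired fit (0.00829). Without sp7+ replicate 2 the Wnt list held 2 higher calls, without sp7+ replicate 1 or sp7- replicate 2 it held 5 lower calls, and DESeq2 called 4 lower.

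Parathyroid hormone and phosphate genes gave 4 higher and 0 lower calls among 14 measured (edgeR; 28.6% against 9.6% of all genes), with a median log2 fold change of 0.56. At an unadjusted p below 0.05, 1 was lower, and with DESeq2 0. Besides fgf23 and phex these were pthlha and phospho1. pthlha, for a parathyroid hormone-related ligand, stood at 3.51 and 6.70 CPM in sp7+ and 1.23 and 0.893 CPM in sp7- cells. phospho1, for the phosphatase that frees phosphate inside matrix vesicles, stood at 11.1 and 17.1 CPM in sp7+ and 3.71 and 3.45 CPM in sp7- cells (3.94-fold). All 4 calls stood whichever library was left out. Lower calls numbered 2 without sp7+ replicate 2, of which alpl was 1, and 1 without sp7- replicate 2.

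Of 24 measured genes that respond to dissociation, 3 were higher (12.5%, against 9.6% of all genes) and 1 lower (4.17%, against 8.45%), with a median log2 fold change of 0.57. jun, an AP-1 subunit, measured 7713 and 5210 CPM in sp7+ and 1413 and 909 CPM in sp7- cells (5.57-fold, adjusted p = 5.14e-04) and the small heat shock gene hspb1 was 5.94-fold higher. HSPA5, for the endoplasmic reticulum chaperone BiP, was 2.96-fold lower, with a call that ended without sp7+ replicate 2 (adjusted p = 0.218) and without sp7- replicate 1 (adjusted p = 0.308). DUSP1 was 2.91-fold higher, with a call that ended without sp7+ replicate 1 (adjusted p = 0.152) and without either sp7- library (0.0922 and 0.0714). Summed over the list the sp7+ libraries held 43600 and 34300 CPM and the sp7- libraries 38300 and 26900 CPM, replicate 1 being above replicate 2 in both gates.

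Of 35 measured cell cycle genes, 8 were lower (22.9%, against 8.45% of all genes) and 2 higher (5.71%, against 9.6%) in sp7+ cells, with a median log2 fold change of -1.51. The replication licensing genes split. MCM5 stood at 6.61 and 10.8 CPM in sp7+ and 28.6 and 34.2 CPM in sp7- cells. MCM2 was 3.17-fold lower, while mcm3 was 4.54-fold higher at 194 and 183 CPM in sp7+ and 40.2 and 42.8 CPM in sp7- cells. The other higher call was the cyclin gene CCNB2 (3.9-fold), which ended with DESeq2 (adjusted p = 0.0513). The mitotic kinesin gene kif20a was 3.84-fold lower. The count of lower calls was not stable, being 1 without sp7+ replicate 1, 12 without sp7+ replicate 2, 13 without sp7- replicate 1, 3 without sp7- replicate 2, 14 in the paired fit and 1 with DESeq2. Calls of MCM2 ended without sp7+ replicate 1 (adjusted p = 0.138) and without sp7- replicate 1 (0.0522), and that of kif20a without sp7+ replicate 1 (0.0859).

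The same contrast was available at 4 dpa from libraries of other fins, in which 5.86% of genes were called higher and 3.14% lower in sp7+ cells. Both the tissue, which was the regenerate alone, and the enzymes, which lacked Liberase, differed from 0 dpa. Of the 1789 genes higher at 0 dpa, 820 (45.8%) were also called higher at 4 dpa, where they made up 75.1% of the calls. Of the 1576 lower genes, 416 (26.4%) were also called lower, 71.1% of the 4 dpa calls. The fitted sign at 4 dpa was the same for 1723 of the higher and 1428 of the lower genes, called or not. In each direction 2 genes were called on the opposite side. Of the 11 bone genes higher at 0 dpa, all but cthrc1a (log2 fold change 0.90, adjusted p = 1 at 4 dpa) were called higher on that day too, where tnfrsf11b, for the RANKL decoy receptor osteoprotegerin, was the other higher call of the list and 3 members were lower. Basal epidermis held 13 lower calls. krt1-19d and cldne kept log2 fold changes of 4.92 and 4.59, whereas that of krt4 was 1.80. Tested directly, 1454 genes (7.8%) had a different sp7+ minus sp7- contrast on the 2 days (edgeR, test against no difference). The paired fit gave 3378 genes, and the count was 959 without sp7+ replicate 1, 2532 without sp7+ replicate 2 and 732 without sp7- replicate 2.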

How the data were processed

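RNA-seq of sorted cells was analysed for sp7+ and sp7- cells at 0 dpa, with the 4 libraries at 4 dpa in the same fit. The deposited values are counts of read pairs per gene. The authors mapped reads with STAR 2.5.2a to GRCz10, kept uniquely mapped pairs and counted them on Ensembl release 85 exons with featureCounts 1.5.0, without regard to strand. A pair overlapping several genes was counted for each, so overlapping and antisense genes are uncertain. Pairs that mapped to several places were not kept, so near-identical genes are uncertain as well.

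The deposited counts entered edgeR 4.0.16 under R 4.3.3 unchanged (filterByExpr, TMM, robust quasi-likelihood fit of all 8 libraries without a block, test against a 2-fold change, Benjamini-Hochberg over 18641 of 32105 genes). TMM factors at 0 dpa lay between 0.765 and 0.875. The SE is the size of the log2 fold change divided by the square root of F, and is not given where the unadjusted p exceeded 0.9. Scripts were tested on simulated data. Alternatives were DESeq2 1.42.0, its size factors, other filters, thresholds, a replicate block and leaving out each library. The pairing of same-numbered libraries was inferred from the paper's description of both populations as isolated from the fins of a replicate. Deviations of same-numbered libraries from their group means correlated at 0.262 at 0 dpa and 0.13 at 4 dpa.

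The members and gene lists were chosen with earlier results of these data known. The 21 lists held 584 entries, of which 464 matched a single gene ID, and 418 different genes were tested. Lists overlap, so that fgf23 and phex, for example, count in both the bone and the phosphate lists. Genes named are sp7, list members that define a role, and the 15 called genes with a symbol, non-overlapping libraries, at least 10 CPM in the higher population and the largest fold in each direction. Symbols came from the study's tables (5421 genes) and a gene name table (21228 genes). Unsorted fins, ATAC-seq and DNA methylation were not analysed here, and some list members are not reported by name.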

Additional observations from a re-analysis of the deposited data

Results flagged for a closer look

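The sp7+ minus sp7- difference at 4 dpa was set against that at 0 dpa gene by gene (edgeR, interaction tested against no difference, false discovery rate 0.05), and 1454 genes differed between the days. Tissue, enzymes and day changed together and cannot be told apart. Values below are the log2 difference at 4 dpa minus that at 0 dpa for genes named here, with 2 libraries in each of the 4 groups.

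Skeletal and connective tissue genes with a smaller or reversed positive difference at 4 dpa were bglapl (-7.29), col14a1a (-7.08), loxa (-2.99), col11a2 (-2.55), sox4b (-2.35), CREB3L1 (-2.19), cthrc1a (-2.01), dcn (-1.89) and dlx3b (-1.53). bglapl, 1490-fold higher in sp7+ cells at 0 dpa, had a log2 fold change of 3.24 at 4 dpa, and col14a1a one of -1.62. Signalling genes of the same kind were nog3 (-4.04), pthlha (-3.07), notum1a (-2.93) and ccl20b (-3.92). In the outer epidermis krt4 differed by -2.94 and krt93 by -2.41. jun (-2.60), hspb1 (-2.17) and mcm3 (-1.51) were on the same side.

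The phosphatase gene phospho1 (1.77) and the pigment cell genes gch2 (2.53) and sox10 (1.55) had a larger positive difference at 4 dpa. For genes lower in sp7+ cells at 0 dpa a positive value is a smaller or reversed difference. These were ckma (4.09), galnt18b (2.78), bmpr1ba (2.65), cyp26a1 (1.82), kif20a (1.82), itga6b (1.80), cldna (1.73), cers3b (1.72), cxcl8b.1 (1.71), si:ch1073-396h14.1 (1.68), ITGB4 (1.67), notch3 (1.67), SAA2 (1.62), MCM5 (1.602), CYP26C1 (1.49), MCM2 (1.47), apoeb (1.299) and rxraa (1.21).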

How the results depend on the processing

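With 2 libraries in each group, outlying libraries could not be tested, and the fits without 1 library assume that the lone library varies like the other groups. Left out in turn, the libraries gave 1417 to 1736 higher and 1127 to 1803 lower calls, 58 to 68 higher and 59 to 94 lower list members, 144 to 154 called genes among the 176 named (161 with all libraries), and 732 to 2532 genes whose difference changed between the days. Genes were tested at 28906309 to 47357980 counts per library, so genes below about 1 CPM rest on few counts.

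DESeq2 called 780 genes and 48 list members lower. Tested against no difference, 3789 genes were higher and 4008 lower, and 107 and 129 list members, and with a fold above 2 required afterwards 3051 and 3183 genes. At a false discovery rate of 0.01, 960 genes were lower. Size factors of DESeq2 moved the median log2 fold change of all genes from -0.07 to 0.05 and gave 1991 higher and 1409 lower calls, 58.6% on the sp7+ side. Without sp7+ replicate 2 that median was -0.19.

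The fit with a replicate block (same-numbered libraries of a day as pairs) gave 1936 higher and 1793 lower calls at 0 dpa and 3378 genes that differed between the days. Of the 176 named genes it changed the call of runx2b, dlx3b and sost alone. Without sp7+ replicate 2, the log2 fold changes of sparc, serpinh1b and PTCH1, none of them called, turned negative. Leaving out each library in turn, they ran from -0.49 to 0.94, -0.15 to 1.11 and -0.25 to 0.49. Among the 176 named genes, DESeq2 ended 21 calls, at adjusted p from 0.0513 to 0.736 (aldh1a2, krt15, evpla, krt94, gli1, gli2a, gas1a, nog2, id2b, BMP4, wnt5a, rargb, rxraa, rbp4, DUSP1, CCNB2, MCM2, kif20a, HSPA5, atp6v1ab and HMCN1), and the size factors of DESeq2 ended 3.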

Other observations

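Gene families outside the lists were scanned by the start of their symbols, and the genes below were chosen after their values were seen. Of 34 measured chemokine genes and receptors, 17 were lower in sp7+ cells and 3 higher (9.6% of all genes were called higher and 8.45% lower), with a median log2 fold change of -2.13. cxcr4a, the receptor gene for Cxcl12, measured 69.99 and 35.5 CPM in sp7+ and 690 and 240 CPM in sp7- cells. ccl20b and ccr6b were among the 3 higher genes. ccl20b stood at 8.52 and 5.30 CPM in sp7+ and 0.0629 and 0.0483 CPM in sp7- cells, with 2 counts in each sp7- library and a ratio of summed counts of 125-fold (48.3 to 461), the range being an exact 95% interval for counting error. ccr6b, of the receptor family that binds CCL20 in mammals, stood at 8.43 and 6.66 CPM in sp7+ and 0.535 and 0.676 CPM in sp7- cells (12.3-fold, adjusted p = 4.87e-05, edgeR). il20ra, for a receptor chain of interleukin 20 family cytokines, which act on epithelia in mammals, was also higher at 156 and 76.7 CPM in sp7+ and 4.18 and 2.004 CPM in sp7- cells.

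Integrin and semaphorin genes held more lower than higher calls. Of 35 integrin subunit genes 16 were lower and 1 higher, which was itga10, for a collagen receptor of mammalian cartilage, at 30.7 and 73.8 CPM in sp7+ and 1.13 and 1.09 CPM in sp7- cells. Of 27 semaphorin genes 13 were lower and 2 higher, of which sema3d, for a secreted guidance cue, stood at 6.52 and 17.5 CPM in sp7+ and 0.535 and 0.7 CPM in sp7- cells. Collagen chain genes were called on both sides, 9 of 55 higher (16.4%, against 9.6% of all genes) and 11 lower (20%, against 8.45%). The cartilage-type fibril gene col11a2 measured 222 and 608 CPM in sp7+ and 4.43 and 5.14 CPM in sp7- cells. Chains of basement membrane collagen went the other way, col4a5 standing at 35.7 and 40.4 CPM in sp7+ and 434 and 342 CPM in sp7- cells and col4a6 being 10.6-fold lower.

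Of 24 sox genes 4 were higher (16.7%, against 9.6% of all genes) and 2 lower (8.33%, against 8.45%). sox3, a SoxB1 factor gene known for neural and placodal progenitors, stood at 948 and 782 CPM in sp7+ and 155 and 158 CPM in sp7- cells (5.53-fold, adjusted p = 3.18e-04), and sox19a, of the same subfamily, at 58.1 and 50.2 CPM in sp7+ and 8.52 and 4.78 CPM in sp7- cells. Of 74 measured ribosomal protein genes, 1 was called against a 2-fold change (edgeR), a lower one, while their median log2 fold change was -1.09.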
